A study of Mus musculus with 30 samples.

Results

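The 10 genes described here belong to the amino acid response and the integrated stress response of mouse cells. They were taken by name, with earlier results of these data known: Atf4, Ddit3, Asns, Psat1, Phgdh, Slc7a11, Vldlr, Trib3, Chac1 and Sesn2. All 10 were found among the 55487 genes of each count table and were followed through 18 RNA-seq libraries in 6 groups of 3. In this response, kinases that sense amino acid shortage, misfolded protein, heme deficiency or double-stranded RNA phosphorylate the translation factor eIF2alpha. Most protein synthesis then slows while the transcription factor ATF4, whose mRNA is already present, is translated. ATF4 pairs with other bZIP proteins and switches on genes that make and import amino acids, charge tRNAs and shut the response off again, so the RNA of its targets can move while Atf4 RNA does not.

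The series concerns ETV2 (also called ER71), a transcription factor that turns mesoderm into blood and endothelial cells, and its relation to KDM4A, a demethylase of histone H3 at lysine 9. Every RNA sample is labelled as mouse embryonic stem cells. Experiment 1 holds the line iETV2 as Control and with DOX (doxycycline, the drug that switches on the inducible Etv2 transgene). Experiment 2 holds the line iETV2-KDM4A (H188A), called the H188A line below, as Control and with DOX, and experiment 3 compares cells of genotype KDM4A/4C DKO, a double knockout, with a genotype called Control. All treated libraries of experiments 1 and 2 received the drug and come from lines named for inducible ETV2, so the drug and the induced protein cannot be told apart. Days of treatment, number of clones, and whether replicates were separate cultures are not given in the sources used here, so p-values measure the spread between these samples, which may be technical. Beside the RNA there are H3K9me3 ChIP-seq region lists for 3 DOX and 3 Control embryoid body libraries, which were used only to describe the chromatin at the 10 genes.

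Library totals ran from 40334911 to 68970038 counted reads, and each of the 10 genes had at least 192 reads in every library. Levels are given as CPM, counted reads scaled to a fixed library total, which compare 1 gene between libraries and not different genes with each other. The labels were checked on their own genes first. Etv2 was at 2.93 ± 0.18 CPM without and 18.6 ± 0.89 CPM with DOX in iETV2, and at 0.376 ± 0.27 and 15.2 ± 3.5 CPM in the H188A line (SD, n = 3), with no overlap in either line. Kdm4a RNA lay between 80.6 and 87.0 CPM without DOX and between 83.6 and 88.7 CPM with DOX in the H188A line, so no added KDM4A (H188A) transcript shows in these counts, and the sources used here do not say whether transgene reads would count under the mouse gene. In the libraries labelled KDM4A/4C DKO, Kdm4a was at 43.9 ± 2.6 CPM against 54.7 ± 0.94 in their control, and Kdm4c was at 45.5 ± 2.6 against 30.7 ± 1.3 (SD, n = 3). That control group also went against its cell type label, with Pou5f1 at 22.8 ± 0.53 CPM and Nanog at 6.98 ± 0.75 CPM, against 370 ± 18 and 210 ± 5.1 CPM in the DKO libraries. Of the H188A control libraries, replicate 1 stood apart, with 625 CPM summed over 1988 olfactory, vomeronasal and trace-amine receptor genes, against 205 and 53.4 CPM in replicates 2 and 3.

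Promoter sequence is given first, because ATF4 acts through a short composite element, made of an ATF part and a C/EBP part, written TGATGNAA. The 250 bases upstream of each start in RefSeq's table (GRCm38.p6) were searched on both strands, and all 10 genes matched, with 12 windows because Psat1 and Vldlr have a pair of starts each. The element was in 3.18% of 21263 protein-coding windows and in 4 of the 12 windows, those of Asns, Slc7a11, Chac1 and the second Vldlr start. The stretches of the first 3 are printed 5′ to 3′ on the gene's own strand, with the element in capitals. All 3 genes moved in the comparisons below, as did genes without the element in their windows, such as Psat1, Trib3 and Sesn2. The Vldlr stretch is not printed, since it lies downstream of that gene's other start and so may be transcribed. The printed Slc7a11 stretch also lies inside that gene's annotated span (chr3:50364936-50499087), which reaches farther upstream. It too may therefore be transcribed.

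Asns, chr6:7693210-7693272, minus strand: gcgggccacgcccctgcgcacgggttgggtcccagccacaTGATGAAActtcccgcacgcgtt

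Slc7a11, chr3:50443614-50443719, minus strand: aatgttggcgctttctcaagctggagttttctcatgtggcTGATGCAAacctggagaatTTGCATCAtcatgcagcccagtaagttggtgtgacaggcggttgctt

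Chac1, chr2:119351009-119351096, plus strand: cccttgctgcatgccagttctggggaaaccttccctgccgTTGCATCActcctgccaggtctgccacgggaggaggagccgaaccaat

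In Asns the element lay 23 to 16 bases before the start. Slc7a11 held 2 copies facing opposite ways, at 66 to 59 and 47 to 40 bases before the start, with 11 bases between them. In Chac1 a single copy on the opposite strand lay 193 to 186 bases upstream, and the second Vldlr start had TTGCATCA on the opposite strand at 200 to 193 bases. The cyclic AMP element TGACGTCA was in 1.92% of all windows and in none of the 12. The antioxidant element TGACNNNGC was in 10.4% of all windows and in those of Asns, Phgdh and Sesn2, without overlapping the ATF4 element in Asns. The ER stress element (CCAAT, 9 bases, CCACG) was in 0.132% of windows and in none of the 12. A match describes letters only and is not evidence that a factor binds there.

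Across the 6 groups the genes differed in how far they moved. Vldlr, a lipoprotein receptor gene that ATF4 can switch on, had the widest range of group means, from 11.1 CPM in the H188A line with DOX to 118 CPM in iETV2 with DOX, a ratio of 10.7. Slc7a11, which imports cystine in exchange for glutamate, ranged 5.77-fold, from 5.02 to 28.9 CPM. Trib3, a pseudokinase that dampens ATF4, ranged 3.65-fold, and Chac1, which degrades glutathione, ranged 3.57-fold. The remaining 6 genes ranged from 1.65-fold for Phgdh to 2.53-fold for Asns. These are ratios of CPM means, while fold and log2 changes of the tests below also use TMM scaling factors, so they can differ.

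**Figure D1:**
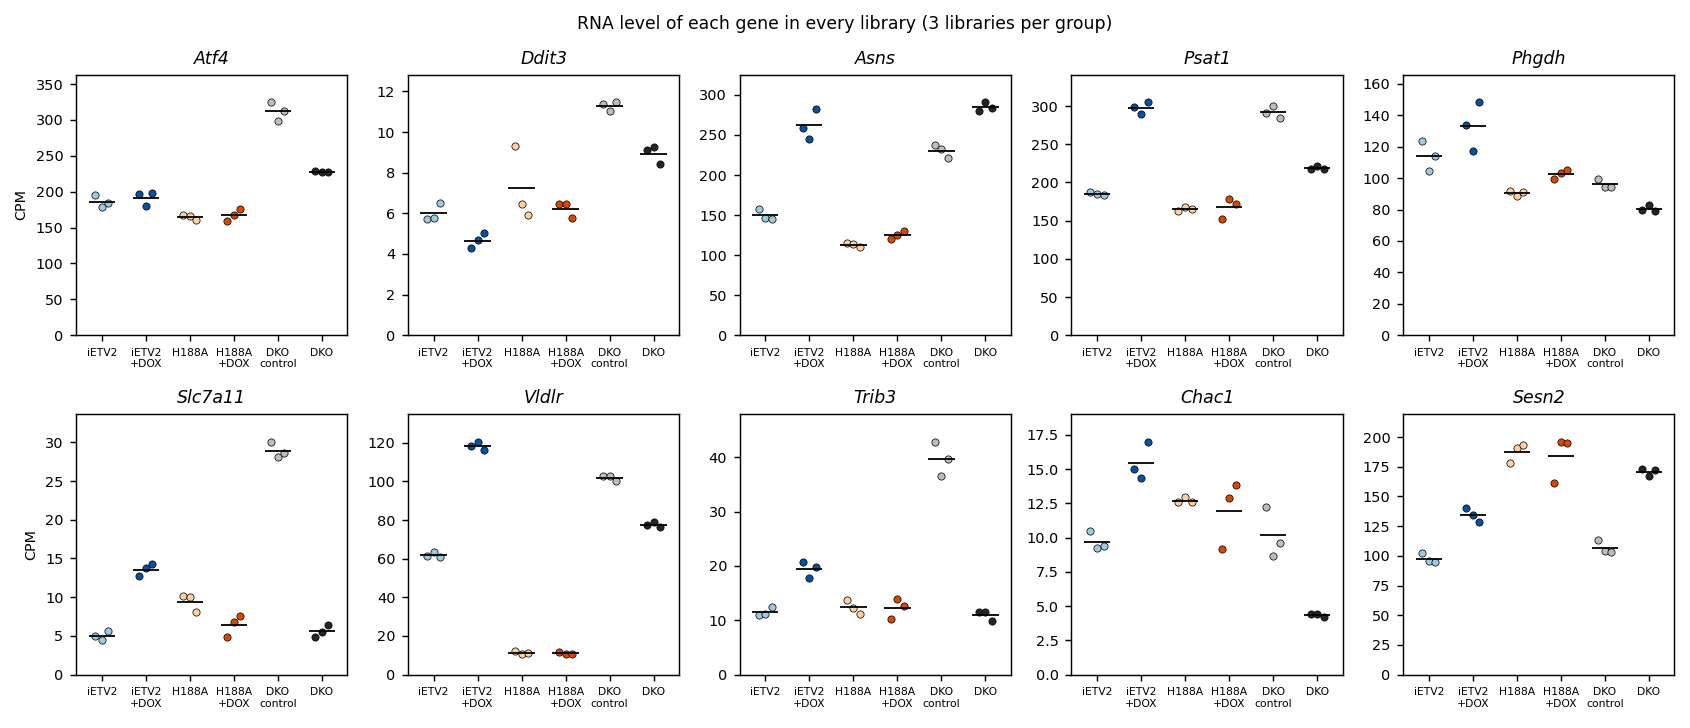
RNA level in CPM (vertical axes, each starting at 0) of the 10 genes in each of the 18 libraries, by group along the horizontal axis, where points are libraries and horizontal bars are group means. Slc7a11, Trib3 and Atf4 are highest in the DKO control group, Vldlr is at 10.5 to 12.1 CPM in all 6 libraries of the H188A line, and Psat1, Vldlr and Chac1 are highest in iETV2 with DOX.

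The order of the groups was not shared by the 10 genes. Atf4 was highest in the DKO control group (312 ± 13 CPM), then in DKO (228 ± 0.52), in iETV2 with DOX (192 ± 10) and without (186 ± 8.3), and in the H188A line with DOX (168 ± 8.2) and without (165 ± 3.6; SD, n = 3 each). For Atf4 the members of each DOX pair overlapped in their libraries and the other neighbours in that order did not. Ddit3, which encodes CHOP, was also highest in the DKO control group (11.3 ± 0.21 CPM) and lowest in iETV2 with DOX (4.66 ± 0.37), and the 4 groups from DKO (8.94 ± 0.46) down to untreated iETV2 (6.00 ± 0.44) formed a chain of overlapping neighbours. Sesn2 had yet another order: the H188A line without DOX (187 ± 8.1 CPM), the H188A line with DOX (184 ± 20) and DKO (171 ± 3.4) overlapped as neighbours at the top, and iETV2 with DOX (134 ± 6.0), the DKO control (107 ± 5.8) and iETV2 without DOX (97.7 ± 4.5) followed with no overlap.

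The remaining genes fell into a few further orders. Asns was highest in DKO (285 ± 5.3 CPM) and iETV2 with DOX (262 ± 19), which overlapped, then in the DKO control (231 ± 8.6), iETV2 (150 ± 7.2) and the H188A line with DOX (125 ± 4.5) and without (113 ± 2.4), each apart from the next. Psat1 was highest in iETV2 with DOX (298 ± 7.7 CPM) and the DKO control (292 ± 8.1), which overlapped, then in DKO (219 ± 2.4), iETV2 (185 ± 2.0) and the H188A line with DOX (167 ± 13) and without (165 ± 3.0), where the last pair overlapped. Phgdh ran from iETV2 with DOX (133 ± 16 CPM) and without (114 ± 9.6) to DKO (80.6 ± 1.7), and its 3 highest groups formed a chain of overlapping neighbours. Serine synthesis and asparagine synthesis genes therefore shared a low position in the untreated H188A line, except that Phgdh was lower still in DKO.

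For Slc7a11 the DKO control (28.9 ± 1.0 CPM), iETV2 with DOX (13.6 ± 0.80) and the untreated H188A line (9.39 ± 1.1) stood apart in that order, and the H188A line with DOX (6.41 ± 1.4), DKO (5.57 ± 0.73) and untreated iETV2 (5.02 ± 0.57) overlapped as neighbours. Trib3 had the same first 2 groups, at 39.7 ± 3.2 and 19.4 ± 1.5 CPM, and its other 4 group means, from 12.4 down to 10.9 CPM, overlapped as neighbours. Chac1 was highest in iETV2 with DOX (15.5 ± 1.4 CPM) and lowest in DKO (4.34 ± 0.15), both apart from the 4 groups between them. Vldlr was the one gene with the H188A line far below all other groups, at 11.1 ± 0.82 CPM without DOX and 11.1 ± 0.71 with it, which overlapped, while untreated iETV2 was at 61.9 ± 1.5 CPM.

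DOX in the iETV2 line raised 7 of the 10 genes and lowered 1. The 7 were Asns and Psat1, which make asparagine and serine, the importer gene Slc7a11, the receptor gene Vldlr, and the feedback and redox genes Trib3, Chac1 and Sesn2. Slc7a11 rose most, 2.74-fold, and Sesn2 least, 1.39-fold. Atf4 itself was at 192 ± 10 CPM with DOX and 186 ± 8.3 without (SD, n = 3). Calls are those of edgeR's quasi-likelihood test with Benjamini-Hochberg adjusted p under 0.05 over the 22025 genes tested, of which 13.7% were called higher and 13.3% lower. These calls leave out the replicate numbers, and with the numbers as a block Phgdh was also called higher (edgeR adjusted p = 0.000118). The median log2 change was 0.69 over the 10 genes and 0.0024 over all genes tested.

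Among the transcription factors, Atf4 was at 195, 179 and 184 CPM in the 3 control libraries and at 197, 180 and 198 CPM in the 3 DOX libraries. The groups overlapped almost completely, with a log2 change of 0.06 ± 0.07 (SE, adjusted p = 0.627) and a 95% interval from -0.09 to 0.21. Ddit3, whose product CHOP acts late in the stress response, was at 5.70, 5.79 and 6.50 CPM without DOX and at 4.29, 4.68 and 5.02 CPM with DOX. Every DOX library lay below every control library for Ddit3, and it fell by 0.35 ± 0.12 on the log2 scale (adjusted p = 0.0439). That call was near its threshold: leaving out any 1 library other than DOX replicate 3 put the adjusted p between 0.0655 and 0.111, and DESeq2 gave 0.125.

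For amino acid synthesis, Asns (asparagine synthetase) was at 158, 146 and 145 CPM without DOX and at 259, 245 and 283 CPM with it. The DOX libraries were all above the control libraries, a 1.77-fold rise (log2 change 0.82 ± 0.07, adjusted p = 2.81e-07). Psat1, the second enzyme of serine synthesis, was at 187, 184 and 184 CPM without DOX and at 299, 290 and 305 CPM with it. It rose 1.62-fold without overlap (log2 change 0.70 ± 0.07, adjusted p = 4.58e-07). Phgdh, the first and committing enzyme of serine synthesis, was at 124, 105 and 114 CPM without DOX and at 134, 117 and 148 CPM with DOX. The groups overlapped, and the log2 change of 0.23 ± 0.08 did not pass (adjusted p = 0.0544). In iETV2 the libraries of the same replicate number deviated together, and each DOX library exceeded its own numbered control for Phgdh. With the replicate number as a block the log2 change of 0.23 had an adjusted p of 0.000118, and without control replicate 1 or DOX replicate 2 it was 0.0349 or 0.0264.

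For transport and the downstream genes, Slc7a11 was at 5.00, 4.46 and 5.59 CPM without DOX and at 12.7, 13.7 and 14.2 CPM with it. Every DOX library was far above the highest control library, and the log2 change was 1.45 ± 0.10 (adjusted p = 1.68e-08). Vldlr was at 61.2, 63.6 and 60.8 CPM without DOX and at 119, 121 and 116 CPM with DOX. These libraries were tightly grouped on either side, 1.93-fold apart (log2 change 0.95 ± 0.07, adjusted p = 2.02e-08). Trib3 went from 11.0, 11.1 and 12.5 CPM to 20.7, 17.7 and 19.8 CPM, a 1.71-fold rise without overlap (log2 change 0.77 ± 0.09, adjusted p = 4.29e-06). Chac1 went from 10.5, 9.25 and 9.37 CPM to 15.0, 14.4 and 17.0 CPM, 1.61-fold (log2 change 0.68 ± 0.09, adjusted p = 3.75e-05). Sesn2, a leucine sensor that restrains mTORC1, went from 103, 95.5 and 94.7 CPM to 141, 134 and 128 CPM (log2 change 0.47 ± 0.07, adjusted p = 0.000112). None of these groups overlapped, and the 7 genes called higher passed with each library left out in turn. The shares of all genes without overlap, or that passed in every such fit, were not counted.

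**Figure D2:**
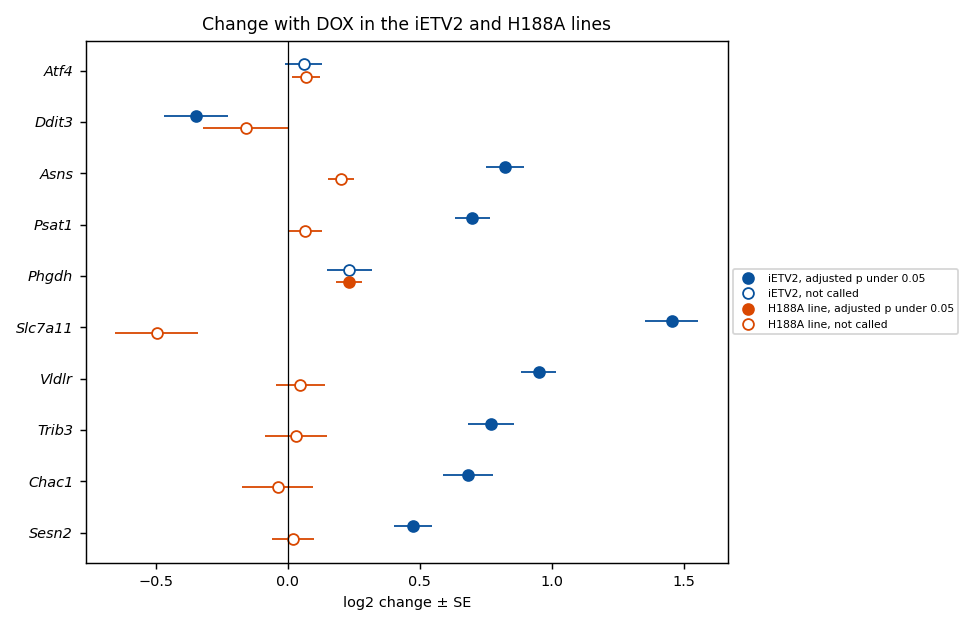
Log2 change with DOX ± SE (horizontal axis) of the 10 genes in the iETV2 line (blue) and the H188A line (orange), from edgeR, 3 against 3 libraries each. Filled points have an adjusted p under 0.05 and open points do not, and Slc7a11 is at 1.45 in iETV2 and at -0.50 in the H188A line.

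Other genes of the pathway were counted over lists of named genes, which were written with earlier results of these data known. In iETV2, 9 of 14 genes of serine, one-carbon and other amino acid synthesis rose with DOX and none fell (median log2 change 0.31). They included Cth (0.83 ± 0.07), which makes cysteine, and the mitochondrial folate enzyme genes Aldh1l2 (1.43 ± 0.18) and Mthfd2 (0.68 ± 0.07). Of 10 amino acid transporters 5 rose and none fell (median 0.28), led by the cationic amino acid importer Slc7a1 (1.52 ± 0.08) and the glycine transporter Slc6a9 (1.02 ± 0.09). Among 20 cytosolic aminoacyl-tRNA synthetases, which load amino acids onto tRNAs, 10 rose and none fell (median 0.20), with Lars, for leucine, at 0.40 ± 0.07. With the replicate block 8 transporters rose and 1 fell, and 16 synthetases rose, but with no low-count filter 1 synthetase was called. Without DOX replicate 3, 8 transporters were called, and the synthetases called were 3 without DOX replicate 1 or 2, 6 without control replicate 1 and 5 without control replicate 3. Over all lists, 40 of 107 genes rose and 14 fell (median 0.17), where 13.7% of all genes tested rose and 13.3% fell.

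The lists outside amino acid supply were mixed. Of 8 bZIP genes 3 rose, namely Jdp2 (1.14 ± 0.12), Atf5 (0.81 ± 0.09) and Atf3 (0.78 ± 0.11), and 2 fell, namely Fos (-0.65 ± 0.09) and Jun. Among 14 other ATF4 and CHOP responsive genes 4 rose and 5 fell, including Rgs2 (-2.12 ± 0.10), Ddit4 (-1.65 ± 0.07), an inhibitor of mTORC1, and the ER oxidase gene Ero1l (-1.20 ± 0.07). Of 20 ER chaperone and IRE1/ATF6 genes 3 rose and 2 fell with a median of 0.00, and of 12 NRF2 antioxidant genes 3 rose and 4 fell. With the block 7 of the 20 ER genes rose and 5 fell, and with no low-count filter 1 ER gene and 3 NRF2 genes were called. Leaving out 1 library left 2, 3, 1 and 8 ER genes called (without control replicate 1 and DOX replicates 1, 2 and 3), and 4 NRF2 genes without control replicate 1. Among 9 genes for eIF2alpha, its kinases and its phosphatase 3 rose and 1 fell, each by less than 0.30 on the log2 scale, and 1 or 0 were called without control replicate 1 or 3 or DOX replicate 1 or 2.

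Cell type markers moved in the same iETV2 libraries. The summed level of 8 endothelial markers went from between 17.8 and 21.7 CPM to between 408 and 419 CPM, and that of 8 primitive blood markers went from between 12.4 and 16.4 CPM to between 297 and 319 CPM, with 7 of 8 blood markers detected without DOX (Hbb-y had at most 3 reads) and all 8 with it. In the same libraries the 9 endoderm markers went from between 139 and 150 CPM to between 57.7 and 60.4 CPM, the 8 neural markers from between 56.3 and 60.4 CPM to between 31.0 and 32.4 CPM, and the 9 fibroblast markers from between 28.9 and 41.3 CPM to between 68.3 and 72.5 CPM, while the pluripotency and the epiblast and primitive streak sums overlapped. Single pluripotency markers nevertheless moved without overlap, in both directions. Pou5f1 went from between 371 and 424 CPM to between 256 and 344 CPM, and Nanog from between 124 and 134 CPM to between 110 and 118 CPM. Sox2 fell from between 45.0 and 47.2 CPM to between 35.6 and 44.0 CPM. Zfp42 rose from between 13.6 and 15.5 CPM to between 33.1 and 36.6 CPM. The share of mitochondrial reads went from between 4.02% and 4.13% to between 5.14% and 5.35%. In bulk RNA, a change in how many cells express a gene and a change in RNA per cell cannot be told apart. The part of these markers and of the mitochondrial share in the changes of the 10 genes was not tested.

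In the H188A line, DOX changed 1 of the 10 genes: Phgdh was called higher and none was called lower. Of the 21086 genes tested 2.22% were called higher and 0.801% lower, and the median log2 change was 0.04 over the 10 genes and -0.01 over all. Phgdh was at 91.6, 88.5 and 91.0 CPM without DOX and at 99.5, 103 and 105 CPM with it. Its groups did not overlap, and the log2 change was 0.23 ± 0.05 (edgeR adjusted p = 0.0399), but without control replicate 1 or 2 or DOX replicate 2 or 3 the adjusted p was between 0.124 and 0.291. Asns was at 115, 113 and 110 CPM without DOX and at 121, 126 and 130 CPM with it, also without overlap. Its log2 change of 0.20 ± 0.05 did not pass (adjusted p = 0.0608), and DESeq2 gave 0.0249.

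Slc7a11 had the opposite sign in this line, with a call that depended on the fit. It was at 10.1, 9.97 and 8.08 CPM without DOX and at 4.91, 6.73 and 7.59 CPM with it. Every DOX library lay below every control library, and the log2 change was -0.50 ± 0.16 (adjusted p = 0.113, 95% interval from -0.85 to -0.14), while a fit over all 18 libraries gave an adjusted p of 0.0286. The other 7 genes had log2 changes between -0.16 for Ddit3 and 0.07 for Atf4 and did not pass, with adjusted p from 0.466 to 0.904. Their 95% intervals bound what may have been missed: for Vldlr from -0.16 to 0.25, for Psat1 from -0.07 to 0.21, for Sesn2 from -0.16 to 0.20, for Trib3 from -0.23 to 0.30 and for Chac1 from -0.34 to 0.26. The interval of Atf4 ran from -0.05 to 0.19. That of Ddit3 was the widest of these 7, from -0.52 to 0.21, and holds the change of -0.35 called in iETV2. Without the control library that stood apart in receptor genes, replicate 1, Phgdh was at 0.22 ± 0.06 (adjusted p = 0.145), and with the receptor sum as a covariate it was at 0.21 ± 0.06 (adjusted p = 0.204). Of the pathway lists, 1 of 105 genes tested rose and none fell, the amino acid transporter Slc43a1 (0.43 ± 0.10, adjusted p = 0.0458). The 8 endothelial markers summed to between 92.3 and 102 CPM without DOX and between 202 and 206 CPM with it. The 8 primitive blood markers went from between 22.7 and 25.7 CPM to between 30.8 and 33.6 CPM. The 8 neural markers went from between 152 and 155 CPM to between 115 and 123 CPM. The 9 endoderm markers summed to between 486 and 503 CPM without DOX and between 379 and 761 CPM with it, which overlapped. The pluripotency, the epiblast and primitive streak and the fibroblast sums also overlapped. The part of these markers was not tested. The calls over all genes also moved with the scaling: 73.5% of 637 calls were higher with TMM and 57.3% with library totals alone. Leaving out 1 library gave between 81 calls (without control replicate 2) and 1839 (without control replicate 3, where 41.2% were higher), and 203, 140 and 91 without control replicate 1, DOX replicate 2 and DOX replicate 3.

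The change with DOX differed between the lines for 7 of the 10 genes, all with a smaller or opposite change in the H188A line. This was tested as an interaction over 12 libraries and 25516 genes, of which 8.22% were called higher and 6.2% lower. The median was -0.62 on the log2 scale over the 10 genes and -0.13 over all genes. Slc7a11 differed most, by -1.94 ± 0.19 (adjusted p = 3.95e-06), then Vldlr, by -0.90 ± 0.11 (adjusted p = 3.67e-05). For the synthesis genes, the difference was -0.63 ± 0.10 for Psat1 (adjusted p = 0.000311) and -0.61 ± 0.10 for Asns (adjusted p = 0.000392). Among the feedback and redox genes, Trib3 differed by -0.73 ± 0.15 (adjusted p = 0.00301) and Chac1 by -0.71 ± 0.18 (adjusted p = 0.0123). Sesn2 differed by -0.45 ± 0.13 (adjusted p = 0.0249), and its adjusted p was between 0.0575 and 0.192 without iETV2 control replicate 2 or 3, iETV2 DOX replicate 1 or 2, H188A control replicate 2 or 3, or H188A DOX replicate 1. The 3 genes not called had interaction values of 0.02 ± 0.10 for Atf4, 0.20 ± 0.20 for Ddit3 and 0.01 ± 0.11 for Phgdh. With no low-count filter Slc7a11 and Vldlr were still called, and the adjusted p was 0.0902 for Trib3, 0.103 for Chac1, 0.257 for Psat1, 0.267 for Asns and 0.518 for Sesn2. The line and the experiment cannot be told apart in this contrast.

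Pathway lists in the same interaction had 9 genes higher and 19 lower of 107, where 8.22% of all genes tested were higher and 6.2% lower. Without iETV2 DOX replicate 2, H188A control replicate 2 or H188A DOX replicate 1, 17 or 18 were called. For serine, one-carbon and other amino acid synthesis 7 of 14 were lower (median -0.27), including Aldh1l2 (-2.21 ± 0.28) and Mthfd2 (-0.67 ± 0.14), and 4 without H188A DOX replicate 1. Of 10 transporters 4 were lower, with Slc7a1 at -1.66 ± 0.12, and 2 without iETV2 DOX replicate 1 or 2 or H188A DOX replicate 1. Of 8 bZIP genes 3 were lower, namely Jdp2 (-1.03 ± 0.17), Atf3 (-0.86 ± 0.16) and Atf5 (-0.65 ± 0.14), and Fos was higher (0.73 ± 0.16). Rgs2 (2.53 ± 0.20), Ddit4 (1.80 ± 0.11) and Ero1l (1.37 ± 0.13), which fell with DOX in iETV2, were higher in this contrast. The synthetase, eIF2alpha, ER and NRF2 lists had 2 calls each, and between 0 and 4 with 1 library left out. With the replicate block 6 synthetases were lower, 6 NRF2 genes were higher and 1 lower, and 4 ER genes were higher. With no low-count filter 2 synthesis genes and 1 transporter were called lower.

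Set side by side, the lines also differed in level. Without DOX 3 of the 10 genes were higher in the H188A line and 3 lower, where 19.7% of all genes tested were higher and 18.6% lower. Vldlr was at 12.1, 10.5 and 10.9 CPM there against 61.2, 63.6 and 60.8 CPM in iETV2, 5.37-fold lower (log2 difference -2.43 ± 0.08, adjusted p = 1.93e-12). Sesn2 was higher, at 178, 191 and 193 CPM against 103, 95.5 and 94.7 CPM (log2 difference 0.99 ± 0.09, adjusted p = 2.00e-07). Slc7a11 was also higher (0.96 ± 0.14, adjusted p = 3.07e-05), as was Chac1 (0.44 ± 0.13, adjusted p = 0.0108), while Asns was lower (-0.36 ± 0.07, adjusted p = 0.000527). Phgdh was lower as well (-0.28 ± 0.08, adjusted p = 0.0102). The Phgdh call was lost without iETV2 control replicate 1 (0.0942) or H188A control replicate 2 (0.0603), that of Chac1 without iETV2 control replicate 3 (0.0515), and Ddit3 gained one without H188A control replicate 3 (0.045).

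With DOX in both lines, 2 of the 10 genes were higher in the H188A line and 6 lower, where 19.9% of all genes tested were higher and 17.6% lower (53.1% of calls higher with TMM and 43.1% with library totals). Vldlr was 9.99-fold lower (log2 difference -3.32 ± 0.08), at 10.6 to 11.9 CPM against 116 to 121 CPM. Slc7a11 (-0.98 ± 0.13), Asns (-0.97 ± 0.07), Psat1 (-0.74 ± 0.07), Trib3 (-0.57 ± 0.10) and Phgdh (-0.28 ± 0.08) were lower, and Sesn2 (0.54 ± 0.09) and Ddit3 (0.51 ± 0.14) higher. The call of Phgdh was lost without iETV2 DOX replicate 1 or 3 or H188A DOX replicate 1 or 2 (adjusted p from 0.0569 to 0.0834), and Chac1 was called lower without H188A DOX replicate 3 (0.0288) and with the replicate block (0.0461). Under library totals Atf4 was also called lower in the H188A line, by -0.17 ± 0.05 without DOX and -0.20 ± 0.05 with it, as was Psat1 without DOX (-0.16 ± 0.05) and Chac1 with it (-0.37 ± 0.13). The summed pluripotency markers were at 728 to 816 CPM in iETV2 and 1758 to 2156 CPM in the H188A line, and the endoderm markers at 57.7 to 150 CPM and 379 to 761 CPM. The 6 epiblast and primitive streak markers summed to 1320 to 1379 CPM in iETV2 and 213 to 248 CPM in the H188A line. With DOX the blood markers were at 297 to 319 CPM in iETV2 against 30.8 to 33.6 CPM in the H188A line, and the endothelial markers at 408 to 419 CPM against 202 to 206 CPM. The part of these markers in the differences was not tested.

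All 10 genes differed between the libraries labelled KDM4A/4C DKO and their control. In the DKO libraries 8 of the 10 were lower: Atf4 and Ddit3, the serine synthesis genes Psat1 and Phgdh, and Slc7a11, Vldlr, Trib3 and Chac1. Asns and Sesn2 were higher. Of the 20426 genes tested 35.6% were called higher and 33.7% lower, so most genes differed here, and the median log2 change was -0.53 over the 10 genes and 0.04 over all. Scaling by library totals alone moved the median of all genes by 0.122, and all 10 calls kept their direction with it, with each library left out and in the other fits. None of the 10 pairs of groups overlapped, and the share of all genes without overlap was not counted.

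Of the transcription factors, Atf4 was at 324, 299 and 313 CPM in the control and at 228, 228 and 228 CPM in the DKO libraries (log2 change -0.58 ± 0.04, adjusted p = 1.59e-11). The DKO values lay within 1 CPM of each other and far below the lowest control. Ddit3 was at 11.4, 11.1 and 11.5 CPM in the control and at 9.11, 9.28 and 8.42 CPM in DKO (-0.46 ± 0.08, adjusted p = 5.21e-05). Its groups lay close together but did not overlap.

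The synthesis genes did not move together. Asns was at 238, 233 and 221 CPM in the control and at 280, 291 and 283 CPM in DKO, a rise of 1.13-fold in the TMM-scaled fit (log2 change 0.18 ± 0.04, adjusted p = 0.000565). Psat1 went the other way, from 290, 301 and 285 CPM to 217, 222 and 218 CPM (-0.54 ± 0.04, adjusted p = 4.72e-11). Phgdh was at 99.4, 94.4 and 94.5 CPM in the control and at 79.9, 82.6 and 79.3 CPM in DKO (-0.38 ± 0.04, adjusted p = 8.94e-08).

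The largest drops were in transport and feedback. Slc7a11 was at 30.1, 28.2 and 28.6 CPM in the control and at 4.88, 5.49 and 6.34 CPM in DKO, 5.65-fold lower (log2 change -2.50 ± 0.09, adjusted p = 1.77e-16). Trib3 fell from 42.8, 36.5 and 39.8 CPM to 11.5, 11.5 and 9.77 CPM, 3.97-fold (-1.99 ± 0.08, adjusted p = 9.53e-16). Chac1 fell from 12.2, 8.65 and 9.63 CPM to 4.44, 4.41 and 4.17 CPM, 2.55-fold (-1.35 ± 0.12, adjusted p = 3.07e-09). For each of these 3 genes the highest DKO library stayed well below the lowest control library. Vldlr was at 103, 103 and 100.1 CPM in the control and at 77.2, 79.0 and 76.2 CPM in DKO (-0.52 ± 0.04, adjusted p = 3.05e-10). Sesn2 was the exception in the other direction, at 114, 104 and 103 CPM in the control and at 173, 167 and 172 CPM in DKO (0.55 ± 0.05, adjusted p = 5.00e-10).

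**Figure D3:**
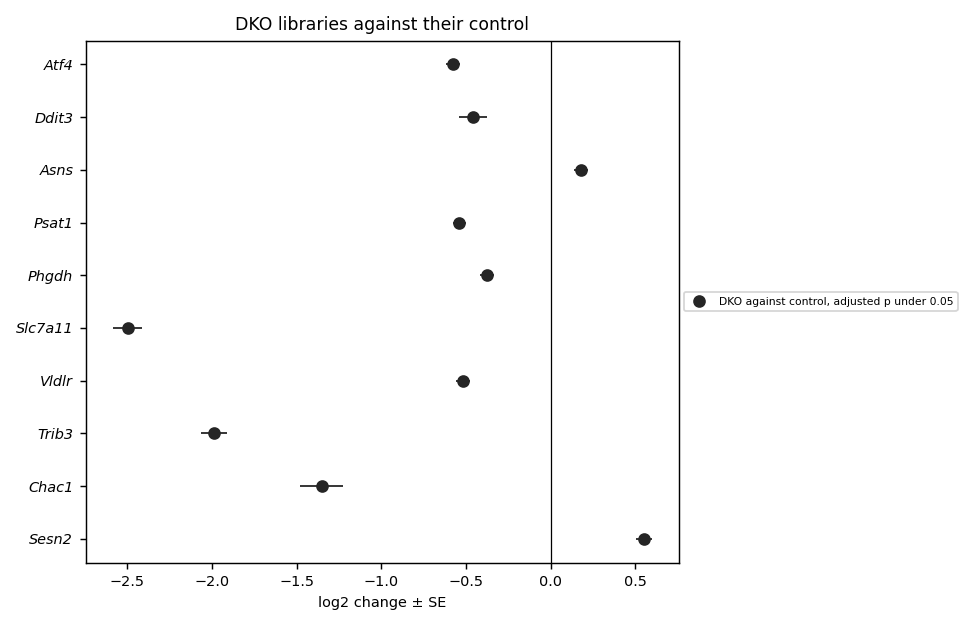
Log2 change ± SE (horizontal axis) of the 10 genes in the 3 libraries labelled KDM4A/4C DKO against their 3 control libraries, from edgeR. All 10 have an adjusted p under 0.05, from -2.50 for Slc7a11 to 0.55 for Sesn2, and Asns is the only other gene above 0.

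Over the pathway lists 71 of 106 genes tested were lower in DKO and 22 higher (median -0.38). Of all genes tested 33.7% were lower and 35.6% higher. Of the tRNA synthetases 18 of 20 were lower and none higher (median -0.56), with Gars (-1.23 ± 0.04), Hars (-1.02 ± 0.04) and Yars (-0.96 ± 0.04). Of 10 transporters 7 were lower and 2 higher, from Slc6a9 (-3.39 ± 0.08) and Slc43a1 (-2.79 ± 0.09) to Slc7a3, a cationic amino acid carrier, at 2.72 ± 0.04. For amino acid synthesis 7 of 14 were lower, with Mthfd2 at -1.17 ± 0.05, and 4 higher, with Cbs, which starts the conversion of homocysteine to cysteine, at 2.02 ± 0.07. Of 7 bZIP genes tested 6 were lower and none higher, including Jdp2 (-1.50 ± 0.12). In the eIF2alpha list 7 of 9 were lower, including the phosphatase subunit gene Ppp1r15a (-0.91 ± 0.05) and the amino acid sensing kinase gene Eif2ak4 (-0.71 ± 0.05), and 2 higher, including the ER stress kinase gene Eif2ak3 (0.61 ± 0.07). The NRF2 list had 9 of 12 lower, with Srxn1 at -2.02 ± 0.05, and 2 higher, with Nqo1 at 1.29 ± 0.07. The ER list had 10 of 20 lower and 6 higher, with the chaperone gene Hspa5 at -0.36 ± 0.04 and Pdia4 at 0.46 ± 0.04. Of 14 other ATF4 and CHOP responsive genes 7 were lower and 6 higher.

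These groups differed as widely in cell type markers. The 10 pluripotency markers summed to between 58.1 and 62.7 CPM in the control and between 1557 and 1619 CPM in DKO, with Zfp42 at 0.607 ± 0.22 CPM in the control. The 8 primitive blood markers summed to between 1325 and 1381 CPM in the control and between 28.6 and 30.4 CPM in DKO, the 8 endothelial markers to between 579 and 587 CPM against 124 and 128 CPM, and the 9 fibroblast markers to between 528 and 540 CPM against 52.5 and 55.4 CPM. Most of the fibroblast sum in the control was Col1a1, at 393 ± 2.5 CPM against 13.8 ± 0.88 CPM in DKO. Col3a1 of the same list was at 3.43 ± 0.53 CPM against 0.813 ± 0.20 CPM (SD, n = 3). The mitochondrial share was 3.64% to 3.73% in the control and 4.82% to 5.67% in DKO. The genotype and the cell state cannot be told apart in these libraries.

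**Figure D4:**
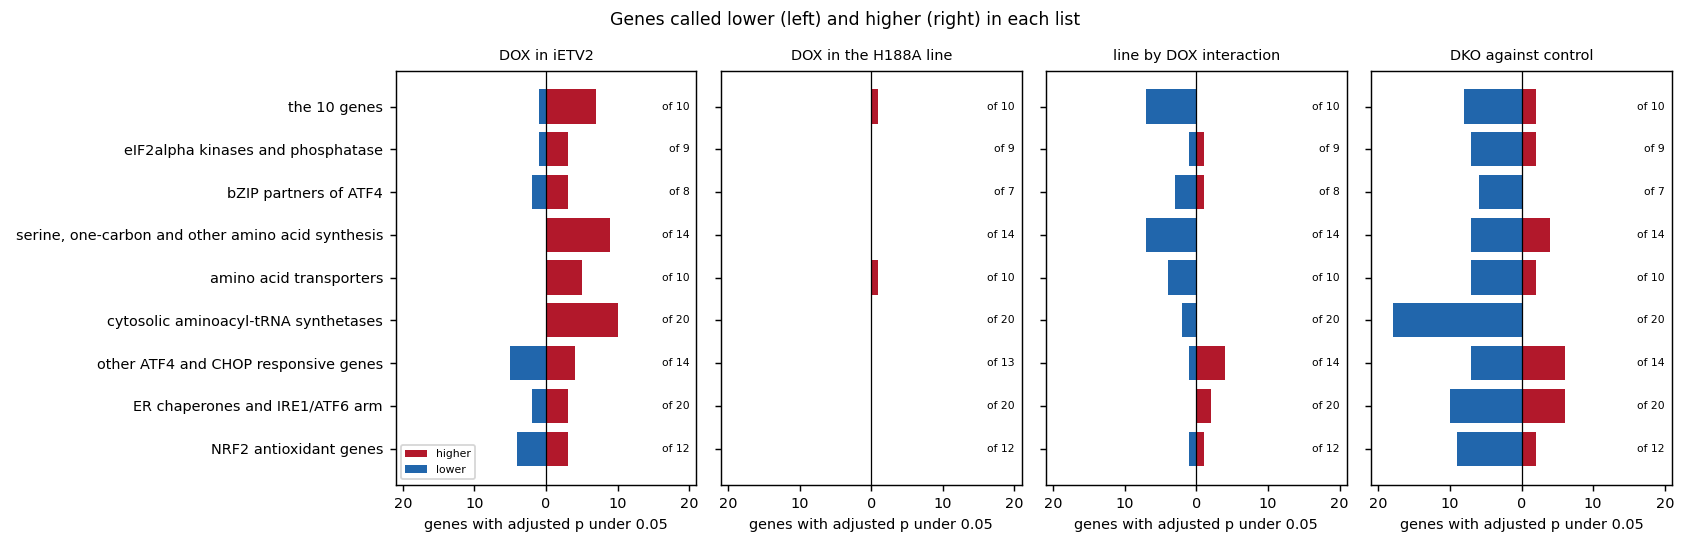
Number of genes with an adjusted p under 0.05 (horizontal axis, lower to the left in blue and higher to the right in red) in each list, for 4 comparisons. The number tested stands at the right of each bar, and the cytosolic aminoacyl-tRNA synthetases have 10 of 20 higher with DOX in iETV2 and 18 of 20 lower in DKO.

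Relatives of the 10 genes did not follow them uniformly. In DKO, Sesn3 (1.05 ± 0.04) was higher as Sesn2 was, while Trib1, a relative of Trib3, was higher (1.40 ± 0.06) where Trib3 was lower. Lrp8 (-0.88 ± 0.04), which like Vldlr encodes a receptor for reelin, was lower. With DOX in iETV2, Trib2 fell by 0.76 ± 0.09 on the log2 scale where Trib3 rose, and Lrp8 rose by 0.34 ± 0.08.

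The shape across the 6 groups was compared on TMM-scaled log2 CPM, with each gene centred on its own mean. The average of the 10 genes was at 0.69 in the DKO control, 0.35 in iETV2 with DOX, -0.06 in DKO, -0.26 in iETV2, -0.29 in the H188A line with DOX and -0.43 without. Psat1 lay closest to that average, with a root mean square difference of 0.0858 over the 6 groups, then Atf4 at 0.206, and Vldlr lay farthest at 1.17. Among 11674 other genes the 5 nearest were Slc39a6 (0.0774), Tmem120b (0.0874), Ptpn11 (0.0919), Lpp (0.0959) and Zfp131 (0.103). This likeness rests on 6 group means and is a description only.

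**Figure D5:**
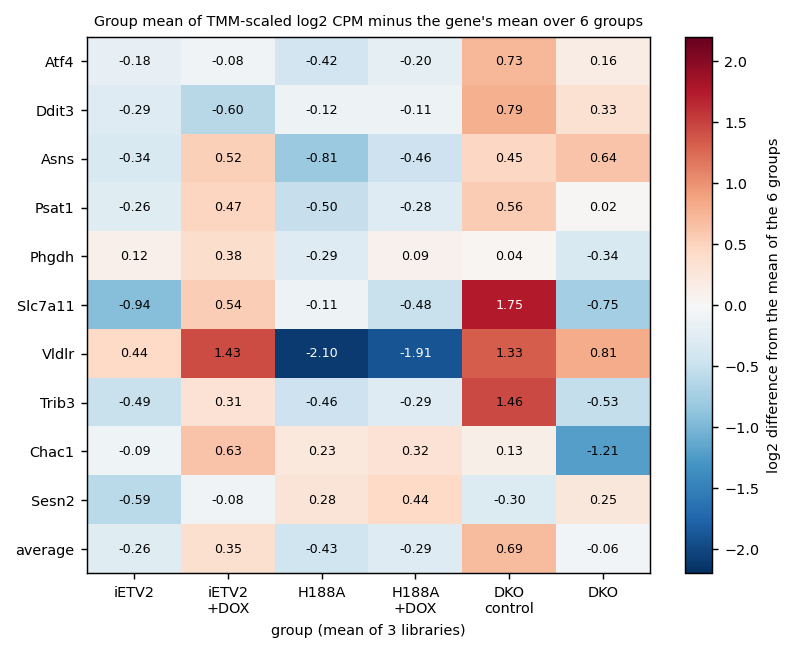
TMM-scaled log2 CPM of each of the 10 genes in each group (columns, mean of 3 libraries) minus the gene's mean over the 6 groups, as colour and number, with the average of the 10 genes in the bottom row. Slc7a11 and Trib3 are highest in the DKO control group at 1.75 and 1.46, and Vldlr is lowest in the H188A line at -2.10 and -1.91.

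H3K9me3, the repressive mark that KDM4 enzymes remove, was listed near 1 or 2 of the 10 genes in each library. A difference from the share of all genes, given next, was not tested. In the authors' region lists (mm10), between 27.0% and 31.0% of 21887 RefSeq genes had a region within 5 kb of the gene in each of the 6 libraries. Of the 10 genes, Phgdh (chr3:98313171-98339969) had one in all 6 libraries, 3.57 to 4.97 kb beyond its 3′ end, with 436 to 725 ChIP reads and 127 to 266 input reads per region. Slc7a11 (chr3:50364936-50499087) had a region inside its annotated span in DOX replicate 2 only, at chr3:50466801-50469800, with 108 ChIP and 54 input reads, upstream of the start printed above. The other 8 had none within 5 kb in any library, with median distances to the nearest region from 11.3 kb for Atf4 (chr15:80255184-80257545) to 233 kb for Chac1. Phgdh thus had a region nearby both with DOX and without, and no difference between the groups was tested.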

How the data were processed

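The RNA values are counts of reads per Ensembl gene, 1 deposited table for each of 18 libraries. Per the submitters' processing notes, which name tools without roles, STAR 2.7.10b, featureCounts 2.0.6, HTSeq 2.0.3, StringTie 2.2.1 and DESeq2 1.18.1 were used with builds GRCm38 and mm10. Strand setting and the handling of reads shared by gene copies are not given in the sources used here, so genes with pseudogene copies or antisense partners are less certain. The authors' H3K9me3 lists hold ChIP and input counts, a deposited log2 fold and an FDR (an adjusted p-value) per region, with FDR at most 0.05. Only region positions, counts and FDR were used here. The 6 input lists hold no regions.

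From the counts, CPM was computed with library totals. Differences were tested in R 4.3.3 with edgeR 4.0.16 (filterByExpr, TMM, glmQLFit, glmQLFTest), with Benjamini-Hochberg adjustment over all genes tested. Standard errors were derived from the F statistic, and 95% intervals use the test's degrees of freedom. Each comparison of 2 groups within an experiment used its own 6 libraries, and comparisons between lines used 12. The scripts were tested on simulated data. Each symbol was matched to its Ensembl identifier, and for Ddit3, which has 2, the one with reads was used. Replicate pairs within a group all differed by more than counting noise. In iETV2 the deviations of same-numbered libraries correlated at 0.16, 0.43 and 0.35. By judgement and not by a test, the numbers were taken to pair the samples there. The main tests did not use this pairing, and the replicate block among the alternatives did. Depth of 40334911 to 68970038 reads per library left every one of the 10 genes above the filter. Alternatives were DESeq2 1.42.0, other scalings and filters, the replicate block, a fit of 18 libraries, a receptor-gene covariate and leaving out each library.

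The 10 genes, the pathway and marker lists and the tests were chosen with earlier results of these data known. All 10 genes are named, and up to 4 further genes per list and comparison, those with the smallest adjusted p. Jun, outside that rule in iETV2, was named after its value was seen, to complete a count of 2. 1 gene of these lists is not reported here.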

Additional observations from a re-analysis of the deposited data

Results flagged for a closer look

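For 7 of the 10 genes the change with DOX differed between the H188A line and the iETV2 line by a direct test of that difference (edgeR interaction, 12 libraries). Of all 25516 genes tested, 8.22% were called higher and 6.2% lower. The values, H188A line minus iETV2 on the log2 scale, were -1.94 for Slc7a11 (adjusted p = 3.95e-06), -0.90 for Vldlr (3.67e-05), -0.73 for Trib3 (0.00301), -0.71 for Chac1 (0.0123), -0.63 for Psat1 (0.000311), -0.61 for Asns (0.000392) and -0.45 for Sesn2 (0.0249). With no low-count filter the difference was called for Slc7a11 and Vldlr only, and that of Sesn2 was lost in 7 of the 12 fits that left out 1 library. For Slc7a11 the 3 iETV2 libraries with DOX lay above all their controls and the 3 H188A libraries with DOX lay below all theirs. The other 6 genes had DOX changes between -0.04 and 0.20 in the H188A line. The line, the experiment and the differing start levels, such as Vldlr at 11.1 CPM in untreated H188A cells against 61.9 CPM in untreated iETV2 cells, cannot be told apart.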

How the results depend on the processing

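Over 990 recomputed changes of single genes (10 genes, 6 comparisons, all alternatives), 933 kept their side of the threshold, 38 lost a call and 19 gained one. None of the 660 that recompute a called change turned its sign, and 31 of the 330 that recompute an uncalled change did, among them Atf4 with DOX in iETV2, Ddit3 and Chac1 with DOX in the H188A line and Phgdh in the interaction. All 130 in DKO against control kept theirs. The count of genes called with DOX in the H188A line, 1 of 10, was the least stable: DESeq2 gave 2, RLE factors, library totals, the replicate block and the receptor covariate each gave 0, and leaving out 1 library gave 0 to 1. With no low-count filter or with 18 libraries in 1 fit it was again 1, but Slc7a11 (lower) in place of Phgdh. Without the low-count filter the interaction was called for 2 of the 10 genes in place of 7 (Slc7a11 and Vldlr). The pathway genes called without that filter were 31 in place of 54 for DOX in iETV2, 14 in place of 28 for the interaction, 31 in place of 58 for the lines without DOX and 38 in place of 64 with DOX, and the cause was not tested. With the replicate block 43 pathway genes were called for the interaction. All genes called with DOX in the H188A line, 637 in the report, were 979 with DESeq2, 423 with RLE factors, 2032 without the filter, 263 with the block, 121 with the covariate and 1596 with 18 libraries. Its share of higher calls, 73.5%, was 56.4% without the filter and 55.1% with a stricter one, and without control replicate 3 it was 41.2%. Beyond the calls given in the report, the block changed no call of the 10 genes in iETV2, the interaction, the untreated lines or DKO. Same-numbered libraries correlated at 0.02, 0.22 and 0.36 in the H188A line and 0.02, 0.03 and 0.03 in experiment 3. In these, 2 of 3 and 3 of 3 were best with their own number, against 3 of 3 in iETV2. The numbers were not taken to pair samples in either, by judgement and not by a test. The H188A values of 0.22 and 0.36 lay within the iETV2 range of 0.16 to 0.43. Counting only H3K9me3 regions that overlap the gene left 1 of the 10 genes (Slc7a11) in place of 2. With 3 libraries per group, small changes may go uncalled whatever the depth.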
